A study of Mus musculus with 33 samples.

Results

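The genes described here moved towards their distal poly(A) site when Nudt21 was deleted in cultured mouse esophageal basal cells. PAS-seq sequences the ends of polyadenylated transcripts, and its deposited table gives for each gene how often the proximal site was used relative to the distal one in control and in KO cells. That ratio was turned into a proximal share in percent, with an infinite ratio counted as 100%, and a gene was taken when its KO share lay at least 5 percentage points below its control share. This rule took 298 of the 4324 genes of the PAS-seq table. A further 3019 genes moved by at least 5 points the other way, to the proximal site, 1005 differed by less than 5 points, and 2 had no control ratio. The members were chosen by these control and KO ratios, so the shares below are a description and carry no test. Each group has 1 ratio per gene with no depth beside it, so a share has no replicate error.

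Nudt21 encodes the small subunit of cleavage factor I, which binds UGUA motifs upstream of poly(A) sites and helps recruit the cleavage and polyadenylation machinery. Cells that lose it are known to use proximal sites in many genes, which shortens their 3' ends. Genes that go the other way lengthen their transcripts, by a longer 3' untranslated region or by a later terminal exon.

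All cells were Nudt21 fl/fl and carried R26CreER, a tamoxifen-activated Cre made from the Rosa26 locus in every cell type, as the PAS-seq labels give it. Control cells (day 0) received ethanol and kept the floxed allele. The mRNA control labels give 4 days of treatment, and the PAS-seq control labels give no duration. By that label the mRNA controls match the treated groups in duration only at day 4. KO cells received 0.05 µM 4-hydroxytamoxifen for 2, 4 or 6 days. The cells that the labels call hypomorph received the same dose together with 50 ng/ml doxycycline for 4 or 6 days, so doxycycline and the hypomorph state cannot be told apart. How doxycycline acts on Nudt21 is not given in the sources used here. PAS-seq covered control, KO day 4 and hypomorph day 4 cells with 3 samples each, and mRNA sequencing covered all 6 groups with 3 libraries each. The labels do not state that replicates came from separate cultures. The p-values therefore cover only how much these libraries vary, and that variation may be technical.

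The 18 mRNA libraries held 16.3 to 91.4 M recovered reads on listed genes. All 3 KO day 2 libraries were deeper than every control library. The summed level of 10 basal cell markers, which include Krt5, Krt14 and Trp63, lay between 28468 and 34165 scaled CPM in every library. Only 1 of 6 fibroblast markers was among the genes tested, and its level did not exceed 2.29 scaled CPM in any library. None of the 3 endothelial markers was among the genes tested, so no level is given for them. The sum of the 3 leukocyte markers tested, of 4 listed, rose from 76.4 to 81.3 at day 0 to between 460 and 512 at day 6. Cd68, a lysosomal membrane protein gene, was the one leukocyte marker that passed the test. Alb, the liver serum protein albumin, lay above 100 scaled CPM in 7 libraries. These were 2 libraries each of day 0, KO day 4 and KO day 6 and 1 of KO day 2, and no hypomorph library was among them. Of 9 squamous differentiation markers tested, 6 rose and none fell at KO day 6, while 1 rose and 4 fell at hypomorph day 6. Over all genes tested 33.6% rose and 37.5% fell at KO day 6, and 35.9% and 31.3% at hypomorph day 6. The summed squamous level differed between the control libraries, from 855 to 2951 scaled CPM. It was 4876 to 6626 at KO day 6 and 1358 to 1559 at hypomorph day 6. The part of these markers in the day 6 results was not tested. Leaving out the 7 libraries with Alb above 100 leaves 1 library each at day 0, KO day 4 and KO day 6 and 2 at KO day 2, so those comparisons borrow their spread from the other groups and lose calls over all genes too. Of these marker lists only the basal one has genes in the PAS-seq table. These are 4 of its 10 genes, and none of them is a distal-shift gene. In bulk RNA, fewer cells of a type and less RNA per cell cannot be told apart.

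In control cells the distal-shift genes used their proximal site more than the table as a whole. Their median proximal share was 64.7%, against 17.5% over all genes of the table, and 194 of them (65.1%) had a share above 50%, against 1153 genes overall (26.7%). The rule favours such genes, because a share can fall only where there is some to lose. In KO cells their median share was 34.2%, whereas over all genes it was 62.1%. The median difference was -17.6 points and the range -97.2 to -5.06. The major site switched from proximal to distal in 98 of the 298 genes. A share of 100% in control cells was listed for 12 genes and a share of 0 in KO cells for 5, which were Dctn4, Nup98, Brwd1, Inip and Brcc3.

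**Figure D1:**
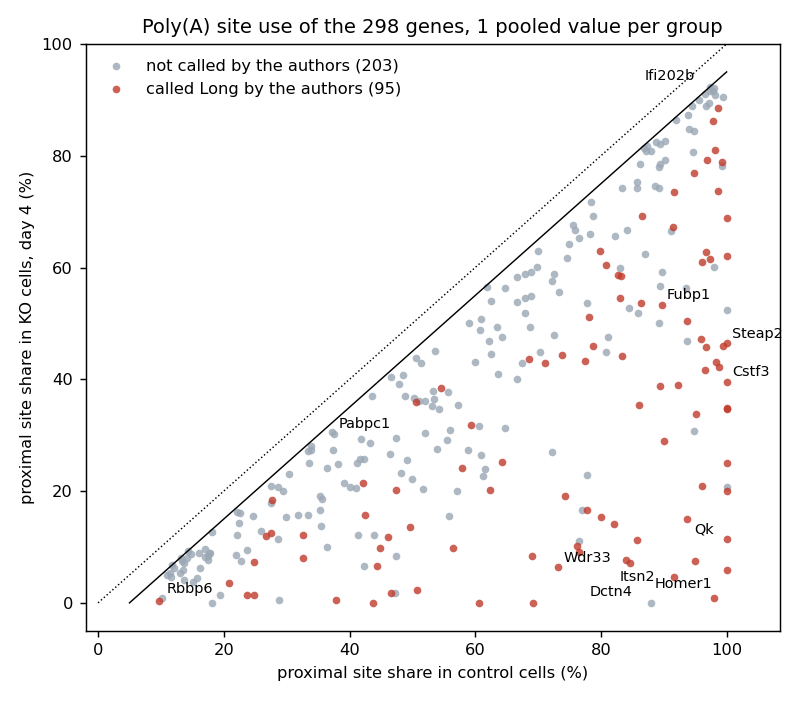
Proximal site share in control cells (horizontal axis, %) against KO cells at day 4 (vertical axis, %) for the 298 distal-shift genes, 1 point per gene and 1 ratio per group. The solid line marks the 5-point threshold, the dotted line equal shares, and red points are the 95 genes the authors called Long; most genes with falls of over 50 points are red.

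The size of the shift was uneven. It exceeded 50 points in 42 genes, lay between 20 and 50 in 91, between 10 and 20 in 80 and between 5 and 10 in 85. The authors called 95 genes of the table Long in KO cells, 2.2% of its rows, and every one of them is among the 298. They called 36 of the 42 genes with the widest shifts, 43 in the next class, 14 in the next and 2 in the last. The other 6 of the 42 were Dctn4, U2surp, Rev1, B4galnt1, Trim27 and Thrap3. The remaining 203 distal-shift genes were not called and none was called Short. Just inside the threshold stood Hspa5 (-5.08 points), Vta1 (-5.08) and Ifi202b (-5.06), and just outside it Cdcp1 (-4.995), Lamb1 (-4.99) and Nmd3 (-4.92). Vta1, a gene of the ESCRT membrane-scission machinery, did not pass the mRNA test at KO day 4 (log2 -0.12 ± 0.10, limma adjusted p = 0.314).

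The members lie on every autosome and on the X chromosome, and make up between 4.97% (chromosome 2) and 9.67% (chromosome 4) of the table's genes on each of these chromosomes. Gene span, from the first to the last annotated base in GRCm38, had a median of 28.6 kb against 28.8 kb over the whole table. It was 54.5 kb in the 42 genes with the widest shifts and 21.6 kb in the 85 with shifts of 5 to 10 points. The median mRNA level in control cells was 72.1 scaled CPM, against 79.7 over all genes of the PAS-seq table and 30.4 over all genes tested for mRNA. Scaled CPM are not divided by gene length, so levels of different genes are not compared below.

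By gene symbol, the solute carriers made up 12 of the 298 members (4.03%) and 78 of the 4324 genes (1.80%). There were 5 translation initiation factor genes (Eif2s1, Eif4a2, Eif4g2, Eif4g3 and Eif5) of 31 in the table, and 5 Ddx or Dhx helicase genes (Ddx10, Ddx11, Ddx42, Ddx52 and Dhx8) of 33. No proteasome gene of 32 and no Ube2 or Usp gene of 33, which act in ubiquitin conjugation and removal, was a member. Mitochondrial ribosome genes gave 4 of 45 and cytoplasmic ribosome genes 2 of 45. These families go by the start of the symbol, and no test was made of them.

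The hypomorph ratios could not be used, because the table gives the same ratio for hypomorph and KO cells, within 1e-06, in 197 of the 298 members and in 3397 genes overall. The authors' hypomorph calls are therefore given as deposited, and their direction rests on the authors. Of the 95 genes called Long in KO cells, 24 were called Long in hypomorph cells, 7 Short and 64 neither. Over the whole table the hypomorph calls were Long in 0.879% and Short in 21.8% of genes. All 24 genes with both calls Long have the same ratio listed for both states, so those ratios are not a second measurement. Another 54 genes called Long in KO cells also have equal ratios, yet were called neither in hypomorph cells. Whether the hypomorph calls rest on separate values cannot be told here. All 7 with opposite calls have separate ratios. These were Cd55, Vti1a, Pfkfb2, Ptpn11, Eif5, Klhl9 and Ptprz1.

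Those 7 genes fell in proximal share in KO cells by between 68.0 points (Cd55, a complement-regulating membrane protein gene, from 82.1% to 14.1%) and 17.2 points (Ptprz1, a receptor tyrosine phosphatase gene, from 98.2% to 81.0%). Vti1a, a vesicle SNARE gene, went from 76.2% to 10.3%, and Ptpn11, which encodes the phosphatase SHP2, from 96.7% to 45.7%. At KO day 4 the mRNA of 1 of the 7 rose and that of 5 fell, where 23.6% of the PAS-seq table rose and 29.0% fell. Ptprz1 fell by 0.69 on the log2 scale (limma adjusted p = 2.06e-07) and Cd55 rose by 0.34 (limma adjusted p = 0.00384). In hypomorph against KO cells at day 4, 4 of the 7 were higher and none was lower, beside 14.6% and 12.7% of that table.

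Nudt21 mRNA was low in all treated groups. Its level was 12.2, 14.2 and 12.2 scaled CPM in the day 0 libraries and 2.70, 2.44 and 3.95 at KO day 4. It was 4.91, 6.25 and 3.85 at hypomorph day 4. Every treated library lay below every control library, and the log2 change at KO day 4 was -1.94 ± 0.28 (SE, limma adjusted p = 3.42e-06). Hypomorph and KO libraries overlapped at days 4 and 6. Neither difference passed (log2 0.64 ± 0.28 and 0.43 ± 0.28, limma adjusted p = 0.101 and 0.187). The day 4 difference passed in a fit of only the compared groups (limma adjusted p = 0.0331). The day 6 difference passed without hypomorph day 6 replicate 2 (limma adjusted p = 0.00121). Counts are per gene and do not separate the deleted exon from the rest. Nudt21 is not among the genes of the PAS-seq table.

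The mRNA of the distal-shift genes moved both ways, in shares close to those of all genes of the PAS-seq table. A gene is said to have risen or fallen where its limma adjusted p was under 0.05 over all 12344 genes tested, and all 298 members were tested. At KO day 4, the day of the PAS-seq samples, 76 members rose, 82 fell and 140 did not pass. Over all genes tested 23.7% rose and 22.3% fell, against 25.5% and 27.5% of the members and 23.6% and 29.0% of all genes of the PAS-seq table. The members' median log2 change was -0.02, against 0.03 over all genes tested. Changes of at least 2-fold were seen in 3 members up and 7 down, or 3.36%, against 3.38% of the PAS-seq table and 7.44% of all genes tested. Reads are counted per gene, so a longer 3' end can add to a gene's count at an equal number of transcripts, and this was not tested.

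At KO day 2, 46 members rose (15.4%), 22 fell (7.38%) and 230 did not pass, beside 11.7% and 7.29% of all genes tested. In the PAS-seq table they come from, 15.4% rose and 8.05% fell. The members' median log2 change was 0.09, against 0.07 over that table and 0.05 over all genes tested. With TMM scaling 28 rose and 28 fell, and edgeR on recovered reads gave 29 and 29. A term for depth class left 21 calls (6 up and 15 down). Leaving out the libraries with high Alb left 20 (9 up and 11 down), with a median log2 change of 0.12, while the share called over all genes tested went from 19% to 8.9%. Without any single library there were 29 to 57, the lowest without KO day 2 replicate 3, then 35 without KO day 2 replicate 1, 39 and 41 without day 0 replicates 1 and 2 and 43 without KO day 2 replicate 2. Depth and Alb differ between these groups, and the part they take in the counts was not tested beyond these fits.

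At KO day 6, 77 members rose, 141 fell and 80 did not pass, and 14 rose and 35 fell by at least 2-fold, or 16.4%, against 20.0% of the PAS-seq table and 26.5% of all genes tested. Over all genes tested 33.6% rose and 37.5% fell, against 25.8% and 47.3% of the members. Over the PAS-seq table those shares were 27.5% and 49.8%, so the members' falls stood near the share of the table they come from. Their median log2 change was -0.15, against -0.20 over that table and -0.03 over all genes tested. Through all 3 days 17 members rose each time, 17 fell each time and 46 were never past the threshold (5.7%, 5.7% and 15.4%). These shares were 7.65%, 6.22% and 14.4% over the PAS-seq table and 6.21%, 4.46% and 20.7% over all genes tested.

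In hypomorph cells at day 4, 37 members rose, 57 fell and 204 did not pass, beside 17.5% and 14.1% of all genes tested. The PAS-seq table had 15.5% and 21.2%, and the members 12.4% and 19.1%. At day 6, 107 members rose, 102 fell and 89 did not pass, beside 35.9% and 31.3% of all genes tested. With TMM scaling 99 rose and 114 fell at hypomorph day 6. The KO and hypomorph comparisons share the day 0 libraries. With the high-Alb libraries left out, which sets 1 KO day 4 library against 1 control library, 70 members were called at KO day 4 in place of 158, and 37 in place of 94 at hypomorph day 4. Over all genes tested the share called went from 46% to 23.3% and from 31.7% to 16.6%.

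**Figure D2:**
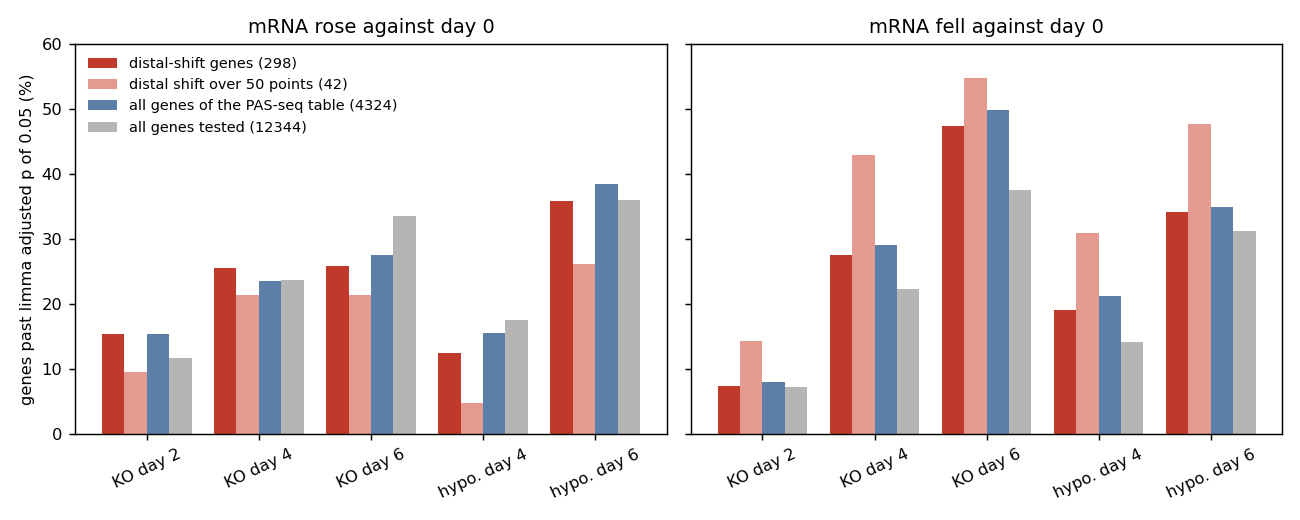
Percent of genes whose mRNA rose (left) or fell (right) against day 0 past limma adjusted p of 0.05, for the 298 distal-shift genes, the 42 with shifts of over 50 points, all 4324 genes of the PAS-seq table and all 12344 genes tested. The bars of the 298 genes stand near those of the whole PAS-seq table, while those of the 42 are higher among the falls and lower among the rises.

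The 42 genes with the widest shifts held more falls than rises, as did the whole PAS-seq table (29.0% against 23.6% at KO day 4, 49.8% against 27.5% at KO day 6 and 21.2% against 15.5% at hypomorph day 4). At KO day 4, 9 of them rose and 18 fell (21.4% and 42.9%), with a median log2 change of -0.17, and at hypomorph day 4, 2 rose and 13 fell. At KO day 6, 9 rose and 23 fell. Among the 85 genes with shifts of 5 to 10 points, 22 rose and 19 fell at KO day 4, with a median of 0.03. Over all 298 members, KO minus control share and log2 change at KO day 4 were only weakly related (Spearman's rank correlation 0.105). That difference in share is negative in every member, so a positive correlation means lower log2 changes with wider shifts. It runs across genes, which are not independent replicates and share the same libraries. The 95 genes that the authors called Long had 24 rises and 33 falls. These classes come from the values that chose the members, and no test was made between them.

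**Figure D3:**
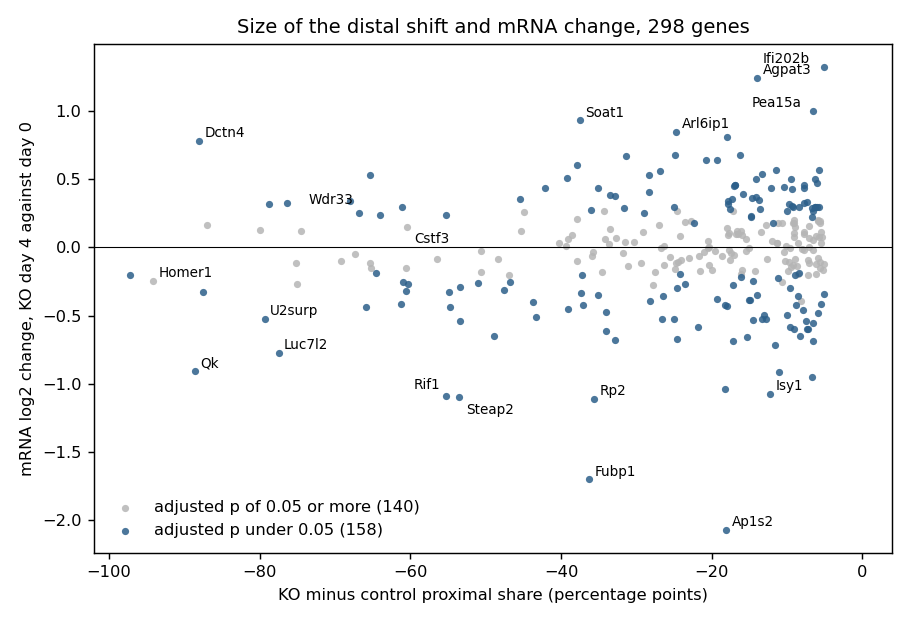
KO minus control proximal share (horizontal axis, percentage points) against the mRNA log2 change at KO day 4 (vertical axis) for the 298 genes, blue where limma adjusted p was under 0.05. Rises and falls occur along the whole axis, and the 2 lowest points are Ap1s2 and Fubp1.

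Among the 12 genes with the widest shifts, 3 act on RNA, and the mRNA of each fell. Qk (chromosome 17, 10206471 to 10319361) encodes the RNA-binding protein quaking, and its proximal share went from 100% to 11.4%. Its mRNA stood at 158, 164 and 180 scaled CPM at day 0, 93.3, 81.1 and 93.0 at KO day 4 and 53.4, 61.1 and 59.8 at KO day 6. The 3 groups do not overlap, and hypomorph libraries, at 104 to 113 on day 4, lay between control and KO. The log2 change was -0.90 ± 0.08 at KO day 4 (limma adjusted p = 3.86e-10) and -0.60 ± 0.08 at hypomorph day 4 (limma adjusted p = 1.63e-06).

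Luc7l2 (chromosome 6, 38551334 to 38609953), a gene for a protein bound to the U1 splicing particle, went from a share of 84.7% to 7.22%. Its mRNA fell from 186, 194 and 183 scaled CPM to 112, 109 and 107 at KO day 4, with no overlap (log2 -0.77 ± 0.08, limma adjusted p = 4.37e-09). At day 6 the KO libraries lay at 91.5 to 97.0 and the hypomorph libraries at 142 to 188, higher in all 3. U2surp (chromosome 9, 95456894 to 95511996), a gene for a protein of the U2 splicing particle, went from 100% to 20.7%. Its mRNA fell from 160, 176 and 168 scaled CPM to 129, 113 and 108 at KO day 4 (log2 -0.53 ± 0.08, limma adjusted p = 2.24e-06). It was lower still at day 6, and there the KO libraries (87.2 to 91.1) and the hypomorph libraries (78.9 to 91.6) overlap.

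Homer1 (chromosome 13, 93303757 to 93405129), a scaffold gene whose short form is known from neurons to end at an intronic poly(A) site, went from 100% to 5.88%. Its mRNA was 33.2, 33.3 and 29.8 scaled CPM at day 0 and 25.3, 27.5 and 28.3 at KO day 4 (log2 -0.25 ± 0.11, limma adjusted p = 0.0747), and 22.4, 16.9 and 22.3 at KO day 6. With TMM, DESeq2 or edgeR scaling or a depth class term the day 4 fall passed (adjusted p = 0.0281 to 0.0444). The fall passed at KO day 6 (log2 -0.64 ± 0.11, limma adjusted p = 1.02e-05). Itsn2, an endocytic scaffold gene, went from 91.6% to 4.62%, and Rreb1, a zinc finger transcription factor gene, from 100% to 20.0%. Neither passed the test at KO day 4, with log2 changes of 0.17 ± 0.08 and 0.13 ± 0.11. At KO day 6 Itsn2 rose by 0.38 ± 0.08 (limma adjusted p = 0.000192), and Rreb1 stood at 0.14 ± 0.11.

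Others among the 12 rose. Dctn4, a subunit gene of dynactin, the partner of the dynein motor, went from 88.0% to 0. Its mRNA was 103, 108 and 101 scaled CPM at day 0, 186, 174 and 178 at KO day 4 and 254, 219 and 247 at KO day 6. Every KO library at those days lay above every control library, and the log2 changes were 0.78 ± 0.07 and 1.20 ± 0.07 (limma adjusted p = 8.11e-10 and 1.55e-14). Hypomorph libraries stood in between, at 136 to 145 on day 4 (log2 0.43 ± 0.07, limma adjusted p = 4.21e-05).

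Slc44a1, a choline transporter gene, went from a share of 93.8% to 15%. Its mRNA was 51.3, 58.9 and 52.7 scaled CPM at day 0, 70.9, 65.5 and 66.6 at KO day 4 and 128, 115 and 128 at KO day 6 (log2 1.18 ± 0.08, limma adjusted p = 4.65e-13). At hypomorph day 6 it was 61.8 to 74.1, below all KO day 6 libraries. The rise at KO day 4 (log2 0.32 ± 0.08, limma adjusted p = 0.00259) was 0.15 with the high-Alb libraries left out, 1 library against 1 (limma adjusted p = 0.52). Mterf3, a gene for a regulator of mitochondrial transcription, went from 84.0% to 7.69% and rose by 0.32 ± 0.11 on the log2 scale at KO day 4 (limma adjusted p = 0.0161). That call was lost without day 0 replicate 1, without KO day 4 replicate 3 or in the fit without the high-Alb libraries, where 1 library against 1 gave 0.18 (limma adjusted p = 0.0569 to 0.539).

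The last 2 of the 12 parted between KO and hypomorph cells at day 6. Calu, which encodes the calcium-binding protein calumenin of the secretory pathway, went from 95% to 7.5%. Its mRNA was 360, 370 and 359 scaled CPM at day 0, 210, 173 and 209 at KO day 6 and 407, 460 and 504 at hypomorph day 6. KO libraries lay below and hypomorph libraries above all controls, with log2 changes of -0.88 ± 0.08 and 0.33 ± 0.08 (limma adjusted p = 2.59e-10 and 0.00127). Ipo7, a nuclear import receptor gene, went from 96.0% to 20.9%. Its mRNA was 592, 618 and 575 scaled CPM at day 0, 544, 484 and 535 at KO day 6 and 703, 827 and 881 at hypomorph day 6. Its fall in KO cells (log2 -0.19 ± 0.08, limma adjusted p = 0.0391) was lost without day 0 replicate 1 or 2, without KO day 6 replicate 2, without the libraries with high Alb and with TMM, DESeq2 or edgeR scaling (adjusted p = 0.0559 to 0.296).

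**Figure D4:**
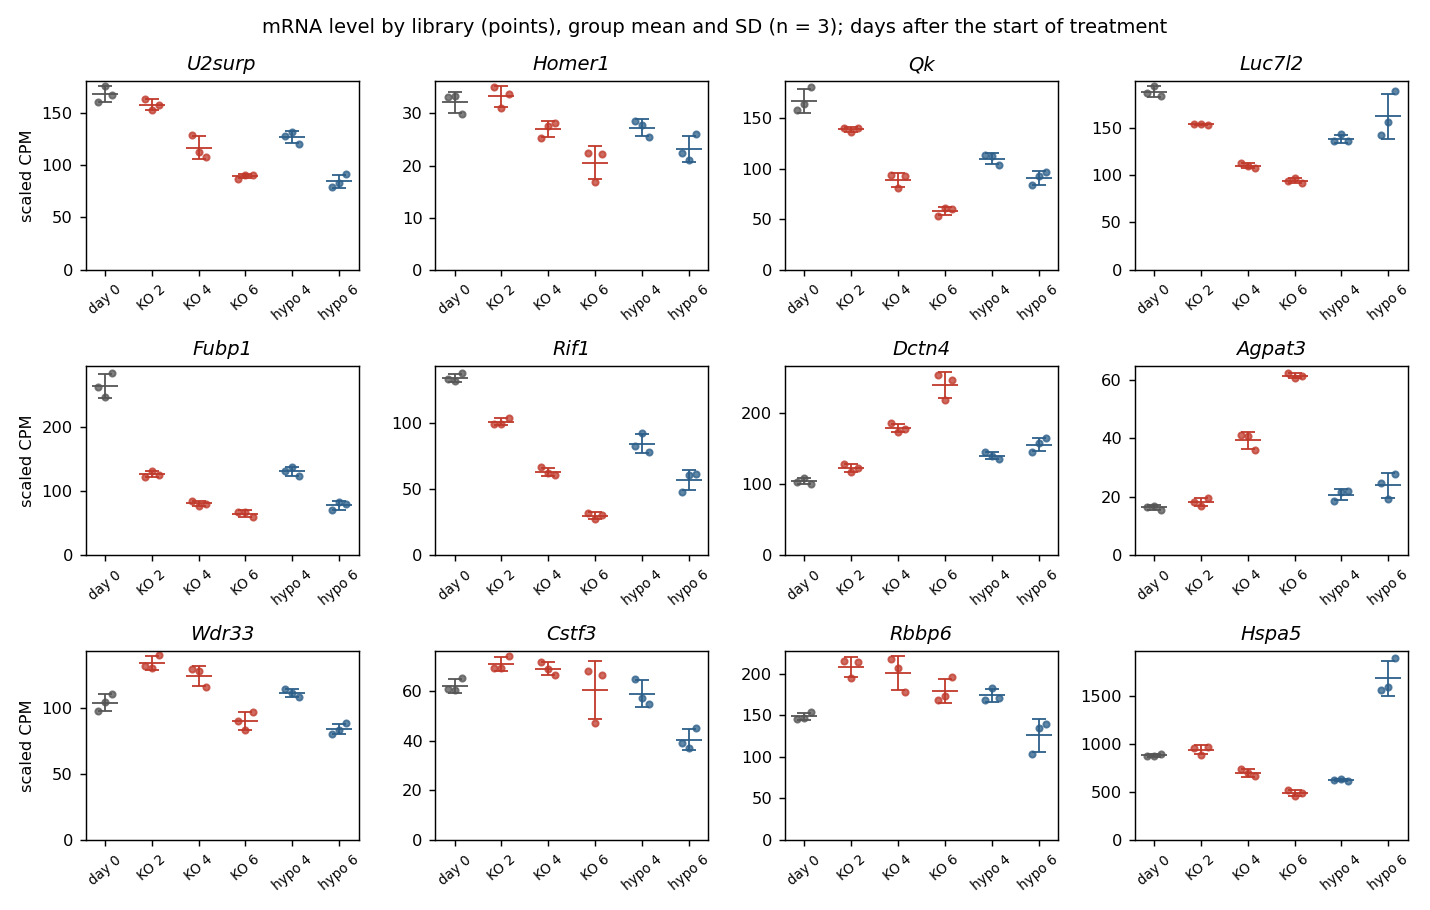
mRNA level (scaled CPM, linear axes from 0) of 12 named distal-shift genes in each of the 18 libraries, with points for libraries and bars for the group mean and SD (n = 3). Qk, Luc7l2, Fubp1 and Rif1 fall through the KO days, Dctn4 and Agpat3 rise, and Hspa5 separates KO from hypomorph cells at day 6.

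The largest mRNA falls at KO day 4 came from genes with shifts of many sizes. Ap1s2, a small subunit gene of the AP-1 clathrin adaptor, moved by -18.1 points (62.5% to 44.4%). Its mRNA was 43.4, 30.6 and 43.6 scaled CPM at day 0, 12.1, 14.7 and 11.9 at KO day 2, 10.7, 5.45 and 11.6 at KO day 4 and 6.27, 5.43 and 2.95 at KO day 6. All KO libraries lay far below the controls, and the log2 change at day 4 was -2.07 ± 0.25 (limma adjusted p = 1.85e-06).

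Fubp1 (chromosome 3, 152210422 to 152236830), a DNA-binding regulator gene known for activating Myc, moved by -36.3 points (89.6% to 53.3%). Its mRNA went from 261, 246 and 283 scaled CPM at day 0 to 84.9, 76.5 and 80.1 at KO day 4. It was already at 121 to 131 on KO day 2, and at hypomorph day 4 it was 131, 138 and 123, with no overlap between these groups and the controls. The log2 change was -1.70 ± 0.08 at KO day 4 and -1.01 ± 0.08 at hypomorph day 4 (limma adjusted p = 1.15e-15 and 2.76e-10), and hypomorph cells stood 0.69 ± 0.08 above KO cells (limma adjusted p = 3.56e-07).

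Rif1 (chromosome 2, 52072815 to 52126769), a gene of replication timing and DNA break repair, moved by -55.2 points (74.3% to 19.0%). Its mRNA was 133, 132 and 137 scaled CPM at day 0, 66.2, 61.8 and 60.1 at KO day 4 and 31.7, 27.1 and 30.5 at KO day 6. These groups do not overlap, and the log2 changes were -1.09 ± 0.09 and -2.15 ± 0.09 (limma adjusted p = 1.05e-10 and 7.43e-18). Isy1, a spliceosome component gene, moved by -12.3 points. It fell from 67.1, 69.3 and 75.7 scaled CPM at day 0 to 33.8, 34.8 and 31.3 at KO day 4 and to 13.0, 12.1 and 11.9 at KO day 6 (log2 -2.47 ± 0.10, limma adjusted p = 1.29e-18).

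Steap2, a metalloreductase gene of iron and copper uptake, moved by -53.6 points and fell from 28.9, 32.7 and 33.6 scaled CPM to 13.1, 13.5 and 17.2 at KO day 4 (log2 -1.10 ± 0.12, limma adjusted p = 1.25e-08). Rp2, a gene of protein transport to cilia, moved by -35.6 points and fell from 17.2, 19.5 and 18.3 to 8.64, 8.01 and 8.07 scaled CPM (log2 -1.11 ± 0.14, limma adjusted p = 3.49e-07). In both genes all KO day 4 libraries lay below all controls. Ap1s2, Fubp1, Rif1, Isy1, Steap2 and Rp2 all fell at KO days 2 and 6 too. At day 2 the log2 changes were -0.54 ± 0.12 for Steap2 and -0.63 ± 0.14 for Rp2 (limma adjusted p = 0.00161 and 0.00245). With a depth class term neither day 2 fall passed (limma adjusted p = 0.0771 and 0.0586). With the high-Alb libraries left out, 1 control library remaining, the day 2 change of Rp2 was -0.65. The day 2 fall of Isy1 (log2 -0.27 ± 0.10, limma adjusted p = 0.0482) was lost when any 1 of the 6 libraries compared was left out, with the replicate block and without the libraries with high Alb (limma adjusted p = 0.0505 to 0.37). The day 2 fall of Rif1 was lost in the last of these (limma adjusted p = 0.135).

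The largest rises at KO day 4 also came with shifts of many sizes. Ifi202b, an interferon-inducible DNA-binding protein gene, moved by -5.06 points and lies at the threshold. Its mRNA was 18.2, 26.7 and 22.1 scaled CPM at day 0, 62.5, 58.8 and 47.8 at KO day 4 and 127, 114 and 151 at KO day 6. Day 4 lay above day 0 and day 6 above day 4 in every library (log2 1.32 ± 0.12 and 2.53 ± 0.12, limma adjusted p = 2.73e-09 and 1.66e-15). The mouse genome holds closely related copies in this family, so reads can be split between them and the level is uncertain.

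Agpat3 (chromosome 10, 78269174 to 78352497), an acyltransferase gene of phospholipid synthesis, moved by -13.9 points and rose from 16.5, 16.9 and 15.5 scaled CPM to 41.3, 40.8 and 36.0 at KO day 4 and 62.4, 60.7 and 61.2 at KO day 6. In hypomorph cells it was 18.5, 21.5 and 22.0 at day 4, above all controls (log2 0.33 ± 0.11, limma adjusted p = 0.0287). That call was lost with a depth class term, without day 0 replicate 1 or 3, without hypomorph day 4 replicate 2 or 3 and without the libraries with high Alb (limma adjusted p = 0.0561 to 0.31). The KO rise was 1.25 ± 0.11 on the log2 scale at day 4 (limma adjusted p = 7.93e-10), and the difference of hypomorph from KO cells at day 4 was -0.92 ± 0.11 (limma adjusted p = 1.08e-06).

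Pea15a, a gene for an ERK-binding adaptor, moved by -6.49 points and rose from 50.9, 62.0 and 51.3 scaled CPM to 107, 115 and 107 (log2 1.00 ± 0.09, limma adjusted p = 2.22e-10). Soat1, the cholesterol-esterifying enzyme gene, moved by -37.5 points. Its mRNA was 36.2, 39.6 and 51.0 scaled CPM at day 0, 75.5, 77.3 and 88.8 at KO day 4 and 44.4, 43.1 and 47.7 at KO day 6, where it overlapped the controls again. The rise at KO day 4 was 0.93 ± 0.10 on the log2 scale (limma adjusted p = 1.21e-08). Arl6ip1, a gene for a membrane-shaping protein of the endoplasmic reticulum, moved by -24.7 points and rose by 0.85 ± 0.08 on the log2 scale at KO day 4 (limma adjusted p = 1.01e-09). Its hypomorph libraries at day 4 (288 to 342 scaled CPM) overlapped the controls (282 to 307). Tmem184b, a membrane protein gene, moved by -18 points and rose by 0.81 ± 0.12 (limma adjusted p = 6.17e-06). Farp2, a guanine nucleotide exchange factor gene, moved by -39.2 points and rose at KO days 2, 4 and 6 (log2 0.66 ± 0.13, 0.51 ± 0.13 and 0.88 ± 0.13), and with the high-Alb libraries left out, 1 control library remaining, day 2 gave 0.50 (limma adjusted p = 0.126) and day 4 gave 0.32 (limma adjusted p = 0.334).

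The cleavage and polyadenylation machinery itself contained both directions. Of 22 genes in a list of its factors, 13 are in the PAS-seq table, and 4 of them moved to the distal site, 7 to the proximal site and 2 by less than 5 points. The 7 were Cpsf6, Cpsf7, Cpsf2, Fip1l1, Cstf2, Pcf11 and Papola, and the 2 were Sympk and Cstf1. The 4 distal-shift genes were Wdr33, Cstf3, Rbbp6 and Pabpc1. By mRNA, 6 of the 22 rose and 4 fell at KO day 4 (median log2 change -0.04, against 0.03 over all genes tested), and 4 rose and 12 fell at KO day 6. Over all genes tested 23.7% rose and 22.3% fell at day 4, and 33.6% and 37.5% at day 6. The 22 include Nudt21, the deleted gene, which is among the falls on both days.

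Wdr33, whose protein reads the AAUAAA signal within the cleavage complex, moved by -66.9 points (73.2% to 6.35%). Its mRNA was 97.7, 105 and 111 scaled CPM at day 0, 132, 131 and 140 at KO day 2, 130, 129 and 116 at KO day 4 and 90.6, 83.6 and 97.0 at KO day 6. It was above all controls at KO days 2 and 4 and below all of them at KO day 6 (log2 0.36 ± 0.08, 0.25 ± 0.08 and -0.21 ± 0.08, limma adjusted p = 0.00102, 0.00688 and 0.0158). The day 4 rise was lost with a depth class term and in the fit without the high-Alb libraries, where 1 library against 1 gave 0.30 (limma adjusted p = 0.0528 and 0.129). The day 2 rise was lost in the same fits (limma adjusted p = 0.0503 to 0.0578), and the day 6 fall without day 0 replicate 3, KO day 6 replicate 2 or the high-Alb libraries, the last giving -0.11 from 1 library against 1 (limma adjusted p = 0.084 to 0.526).

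Cstf3, which encodes the scaffold subunit of cleavage stimulation factor and is known to have a truncated form that ends within an intron, moved by -60.4 points (100% to 39.6%). Its mRNA was 60.7, 60.1 and 65.0 scaled CPM at day 0, 71.4, 68.9 and 66.1 at KO day 4 and 39.1, 37.0 and 45.0 at hypomorph day 6. The change at KO day 4 did not pass (log2 0.15 ± 0.11, limma adjusted p = 0.26), and the fall at hypomorph day 6 did (log2 -0.62 ± 0.11, limma adjusted p = 1.13e-05).

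Rbbp6, a ubiquitin ligase gene of the cleavage complex, moved by -9.30 points (10.1% to 0.794%). Its mRNA was 145, 147 and 154 scaled CPM at day 0, 215, 195 and 215 at KO day 2, 217, 206 and 178 at KO day 4 and 103, 135 and 140 at hypomorph day 6. KO libraries lay above and hypomorph day 6 libraries below all controls (log2 0.43 ± 0.09 at KO day 4 and -0.25 ± 0.09 at hypomorph day 6, limma adjusted p = 0.00046 and 0.0196). The hypomorph fall was lost without day 0 replicate 3, hypomorph day 6 replicate 1 or the libraries with high Alb (limma adjusted p = 0.0663 to 0.228). The KO rise at day 6 (log2 0.27 ± 0.09, limma adjusted p = 0.0121) was lost without KO day 6 replicate 3 (limma adjusted p = 0.0802). Pabpc1, the cytoplasmic poly(A)-binding protein gene, moved by -7.18 points (37.5% to 30.3%). Its mRNA was 2165, 2177 and 2358 scaled CPM at day 0, 1852, 1833 and 1928 at KO day 6 and 2981, 3104 and 3360 at hypomorph day 6. KO libraries lay below and hypomorph libraries above all controls (log2 -0.25 ± 0.06 and 0.49 ± 0.06, limma adjusted p = 0.000635 and 6.13e-08), and with the high-Alb libraries left out the KO fall was -0.18 from 1 library against 1 (limma adjusted p = 0.296). The gene has processed pseudogenes, and how the authors counted reads that fit several places is not given in the sources used here.

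Families of members also split. Of the 12 solute carrier genes, 6 rose and 4 fell at KO day 4, and 1 rose and 7 fell at KO day 6. Of all genes in the PAS-seq table, 23.6% rose and 29.0% fell at day 4, and 27.5% and 49.8% at day 6. The thiamine transporter gene Slc19a2 (share from 100% to 34.6%) rose by 0.53 on the log2 scale at KO day 4 (limma adjusted p = 2.85e-06), and the UDP-galactose transporter gene Slc35a2 (78.8% to 46.0%) fell by 0.68 (limma adjusted p = 3.34e-05). Slc2a5, the fructose transporter gene, rose by 0.56 (limma adjusted p = 3.85e-06). The 5 Ddx or Dhx helicase genes fell at KO day 6, when 47.3% of the members and 49.8% of the table fell, and 2 of the 5 fell at KO day 4. Ddx11, a helicase gene of sister chromatid cohesion, fell by 0.43 at KO day 4 and by 1.98 at KO day 6 (limma adjusted p = 0.00482 and 2.73e-14). Of the 5 initiation factor genes, 2 rose and 2 fell at KO day 4, where Eif4a2 rose by 0.30 (limma adjusted p = 0.00165) and Eif5 fell by 0.39 (limma adjusted p = 0.00583).

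Hypomorph and KO cells were compared directly at each day. At day 4, 43 members were higher in hypomorph cells, 41 lower and 214 did not pass, beside 13.9% and 10.7% of all genes tested. With the 7 libraries of high Alb left out the count of 84 became 25, and the share over all genes tested went from 24.5% to 9.29%. At day 6, 143 were higher, 72 lower and 83 did not pass, beside 37.7% and 27% of all genes tested and 51.7% and 19.6% of the PAS-seq table. The members' median log2 difference was 0.15, against 0.23 over that table and 0.07 over all genes tested. With TMM scaling 131 were higher and 92 lower (median 0.07), and with DESeq2 size factors 127 and 96 (median 0.05). On recovered reads edgeR gave 132 and 91 (median 0.07).

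Opposite directions against day 0 were rare at day 4 and more frequent at day 6. At day 6, 18 members (6.04%) fell in KO and rose in hypomorph cells and 5 (1.68%) did the reverse, while over all genes tested these shares were 4.52% and 2.17%. Hspa5, which encodes the chaperone BiP of the endoplasmic reticulum and lies at the threshold of the rule, was among the former. Its mRNA was 877, 880 and 903 scaled CPM at day 0, 520, 463 and 492 at KO day 6 and 1567, 1600 and 1900 at hypomorph day 6. KO libraries lay below and hypomorph libraries above every control, with a log2 difference of 1.78 ± 0.07 between the states (limma adjusted p = 1.93e-17).

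Cmss1, a gene named for a role in the small ribosomal subunit, moved by -17.1 points. Its mRNA was 14.5, 15.6 and 16 scaled CPM at day 0, 4.02, 3.69 and 5.90 at KO day 6 and 17.2, 15.3 and 17.0 at hypomorph day 6. The KO day 6 libraries alone stood apart, with a log2 difference between the states of 1.78 ± 0.15 (limma adjusted p = 5.14e-11). Thyn1, a gene of unsettled function, moved by -6.19 points and lay at 9.06, 8.36 and 9.28 at day 0, 3.92, 4.31 and 5.19 at KO day 6 and 16.3, 13.1 and 16 at hypomorph day 6.

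The 3 members with the largest differences at day 4 were Slc14a1, Nqo1 and Agpat3. Slc14a1, a urea transporter gene, moved by -6.54 points. Its mRNA was 54.5, 51.3 and 49.8 scaled CPM at day 0, 36.5, 28.3 and 31.7 at KO day 4 and 93.4, 91.7 and 83.0 at hypomorph day 4. The states differed by 1.47 ± 0.10 on the log2 scale (limma adjusted p = 1.8e-11). At day 6 the difference did not pass, with 30.1, 23.4 and 29.3 in KO and 26.4, 23.4 and 24 in hypomorph cells (log2 -0.16 ± 0.10, limma adjusted p = 0.182). It passed with TMM, DESeq2 or edgeR scaling and without KO day 6 replicate 2 (adjusted p = 0.0251 to 0.0346). Nqo1, a quinone reductase gene of the oxidative stress response, moved by -20.7 points and was called Long. Its mRNA was 151, 184 and 137 scaled CPM at day 0, 249, 259 and 225 at KO day 4 and 132, 119 and 111 at hypomorph day 4, with a log2 difference of -1.02 ± 0.09 (limma adjusted p = 3.6e-09).

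**Figure D5:**
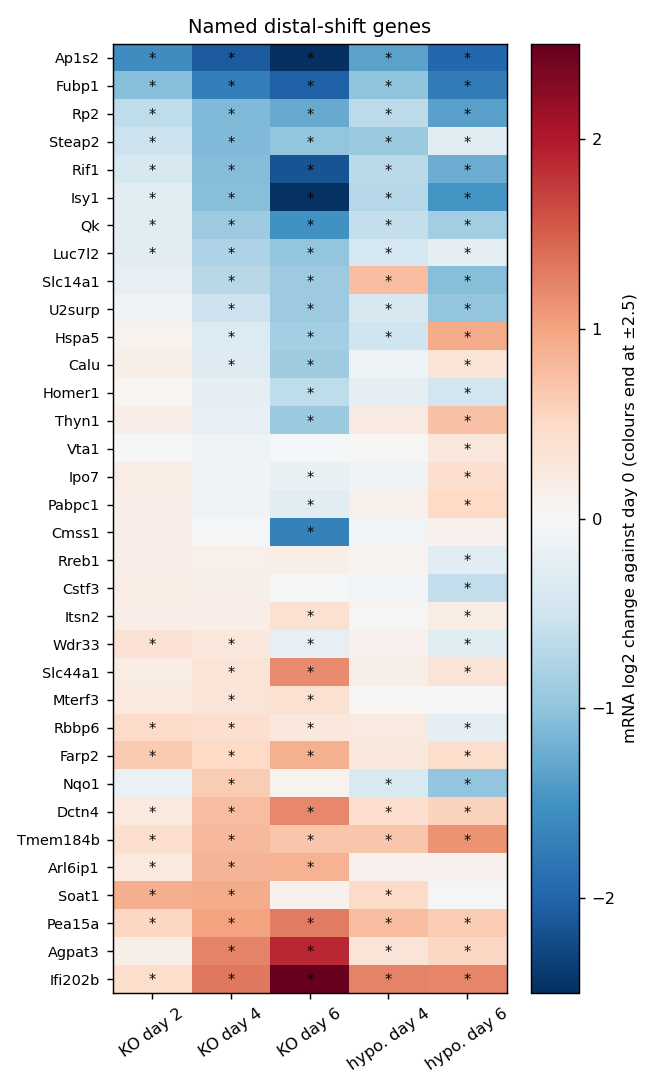
mRNA log2 change against day 0 (colour, ending at 2.5 either way) of the named distal-shift genes in the 5 comparisons, sorted by the change at KO day 4, with a star where limma adjusted p was under 0.05. Ap1s2, Fubp1, Rif1 and Isy1 are blue in all 5 columns and Ifi202b and Pea15a red, while Hspa5 and Calu are blue at KO day 6 and red at hypomorph day 6.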

How the data were processed

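mRNA was sequenced in 18 libraries (6 groups of 3) and PAS-seq in 9 samples. Per the submitters' processing notes, STAR and featureCounts were used, on mm10 for mRNA and mm9 for PAS-seq, with no versions. The deposited mRNA values are a normalized signal per gene, called scaled CPM here because the columns do not sum to CPM, although CPM had been assumed in the design. In the deposited values 100% lay within 0.1 of a whole read, which gave 16.3 to 91.4 M reads per library. The deposited PAS-seq table gives a proximal to distal ratio pooled per group, with the authors' call. The authors' deposited log2 changes and p-values per mRNA comparison served only as an alternative.

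limma 3.58.1 in R 4.3.3 was fitted to log2(scaled CPM + 0.5) of all 18 libraries, two-sided, using its trend and robust options, for 12344 of 12348 genes at 1 or more in at least 3 libraries. Benjamini-Hochberg adjustment ran over all of them. A log2 change on this scale understates the change of low genes. The fit was tested on simulated data. Positions are from the RefSeq table of GRCm38, to which all 298 members matched.

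The members and lists were chosen with earlier results of these data known. Genes were named by a rule: the 12 widest shifts, 3 on each side of the threshold, the 6 largest falls and rises at KO day 4 and 4 each that kept their direction at days 2, 4 and 6, 3 with the largest difference between hypomorph and KO at each day, and members of the cleavage and polyadenylation list. Other genes were named after their values were seen. A gene that the rule takes is not reported here. Alternatives used edgeR 4.0.16 on recovered counts, DESeq2 1.42.0 size factors, TMM, other pseudocounts and filters, a depth term, and left-out libraries. Poly(A) site sequences are not analysed here.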

Additional observations from a re-analysis of the deposited data

Results flagged for a closer look

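Several distal-shift genes changed in opposite directions against day 0 in KO and hypomorph cells, with both changes past the threshold and the difference between the states itself past limma's test. All differences below are hypomorph minus KO on the log2 scale. At day 6 they were 1.21 for Calu, 0.62 for Ipo7, 1.78 for Hspa5, 1.65 for Thyn1 and 0.75 for Pabpc1, which fell in KO and rose in hypomorph cells. For Rbbp6, which rose in KO and fell in hypomorph cells, the difference at day 6 was -0.52. Its KO rise at day 6 did not pass without KO day 6 replicate 3 (limma adjusted p = 0.0802), nor its hypomorph fall without day 0 replicate 3, hypomorph day 6 replicate 1 or the high-Alb libraries (limma adjusted p = 0.0663 to 0.228). The KO fall of Ipo7 was lost in 7 alternatives (adjusted p = 0.0559 to 0.296), and that of Pabpc1 in the fit without the high-Alb libraries (limma adjusted p = 0.296). At day 4 the difference was 1.47 for Slc14a1, which fell in KO cells, and -1.02 for Nqo1, which rose in KO cells.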

How the results depend on the processing

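Of the 7 counts of called members, those at day 6 (KO, hypomorph and hypomorph against KO) stayed within 1.5 times the reported value under every alternative. That holds for the total called, while the split by direction moved with the scaling. With TMM, hypomorph day 6 went from 107 up and 102 down to 99 and 114. Hypomorph against KO at day 6 went from 143 higher and 72 lower to 131 and 92. Leaving out the 7 libraries whose Alb exceeded 100 gave 20 (from 68) at KO day 2, 70 (from 158) at KO day 4, 37 (from 94) at hypomorph day 4 and 25 (from 84) for hypomorph against KO at day 4, and a depth class term gave 21 at KO day 2. Without the 7 libraries, day 0, KO day 4 and KO day 6 keep 1 library each, which is assumed to vary like the other groups, and calls over all genes fell alike (19% to 8.9%, 46% to 23.3%, 31.7% to 16.6% and 24.5% to 9.29%). Leaving out 1 library gave 29 to 57 at KO day 2, 141 to 154 at KO day 4, 66 to 85 at hypomorph day 4 and 62 to 73 for hypomorph against KO at day 4. Taking only the genes the authors called left 95 members of 298. Over 4836 values of single genes, none changed direction while called, 172 lost their call and 66 gained one. The replicate block gave 73, 162, 221, 100, 213, 89 and 216 called members. Deviations of same-numbered libraries from their group means had correlations of -0.811 to 0.709, and 10 of 45 pairs lay over 0.1. The median was -0.00418, against 0.00149 for libraries with different numbers. Depth and Alb also enter these deviations, so the check cannot decide whether the numbers pair the samples. Depth limits low genes, and the PAS-seq depth is unknown.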
